A study of Mus musculus with 12 samples.

Results

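The contractile genes followed here are 10 genes known from smooth muscle cells and pericytes, Acta2, Actg2, Tagln, Myl9, Cnn1, Myh11, Tpm1, Tpm2, Des and Rgs5. They encode actins, myosin chains, tropomyosins and other actin-binding proteins, the intermediate filament protein desmin and, with Rgs5, a signalling regulator. They were chosen as a list by their known function, and each was read at its brightest probe set, by mean over all arrays, among probe sets assigned to 1 gene symbol. Of the 10 genes, 9 were measured in this way, out of 17097 genes in all. The Tagln probe set is shared with Pcsk7 in the annotation, so no value is given for Tagln, a gene for the actin-binding protein transgelin. The 9 measured genes were covered by 20 probe sets with 1 symbol.

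Fibroblasts were sorted by flow cytometry from the skin of 3 newborn female littermate mice aged 2 days, and each of 4 populations was hybridised to 1 Affymetrix array per animal, which gives 12 arrays. All 4 populations were sorted as Pdgfra+ and CD34+ cells that lacked CD45, CD117, CD31 and EpCam. The CD26+ upper papillary fibroblasts (papillary) also lacked Dlk1 and Sca1, the Dlk1- Sca1+ pre-adipogenic and Dlk1+ Sca1+ pre-adipogenic fibroblasts both lacked CD26, and the Dlk1+ reticular fibroblasts (reticular) lacked CD26 and Sca1. No treatment or genetic change was named, and the sources used here do not give the strain. Each sample was RNA of 4500 cells, amplified over 21 cycles. In such pooled RNA, fewer cells of a type and less RNA per cell cannot be told apart.

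In smooth muscle and in myofibroblasts, actin filaments of the Acta2 type slide against myosin, whose activity is switched by phosphorylation of its regulatory light chain. Tropomyosins and calponin bind along the filament, and desmin forms intermediate filaments that link contractile units. Many of these genes are driven by serum response factor (SRF), which binds the CArG box in their promoters and is helped by myocardin and related coactivators. In skin, high levels of this set are known from arrector pili muscle, vessel walls, the dermal sheath of the follicle and wound myofibroblasts, and Rgs5 and Myh11 are also known from mural cells, the pericytes and smooth muscle cells around vessels.

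The promoters of Acta2, Myl9 and Tpm1 are shown because SRF and MCAT sites are the best known control elements of this family and these windows held matches to them. RefSeq windows (build GRCm38.p6) of 250 bases before the start were used here for 7 of the 10 genes, Acta2, Myl9, Cnn1, Tpm1, Tpm2, Des and Rgs5. The Acta2 window lies at chr19:34255374-34255623 on the minus strand, the Myl9 window at chr2:156775214-156775463 on the plus strand, and the Tpm1 window at chr9:67049214-67049463 on the minus strand. Each is printed 5' to 3' on the strand of the gene, and capitals mark CArG boxes and CArG-like sequences with up to 1 G or C in the A and T core.
Acta2: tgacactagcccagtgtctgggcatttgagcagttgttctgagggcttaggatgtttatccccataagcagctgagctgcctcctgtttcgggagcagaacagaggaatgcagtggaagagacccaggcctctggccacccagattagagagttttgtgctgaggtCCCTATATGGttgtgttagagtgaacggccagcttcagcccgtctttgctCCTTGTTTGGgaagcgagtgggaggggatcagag
Myl9: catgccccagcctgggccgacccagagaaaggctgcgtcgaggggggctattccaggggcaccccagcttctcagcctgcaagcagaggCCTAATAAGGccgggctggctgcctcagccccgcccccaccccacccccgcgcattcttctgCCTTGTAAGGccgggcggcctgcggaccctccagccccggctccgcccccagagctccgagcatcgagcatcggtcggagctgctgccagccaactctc
Tpm1: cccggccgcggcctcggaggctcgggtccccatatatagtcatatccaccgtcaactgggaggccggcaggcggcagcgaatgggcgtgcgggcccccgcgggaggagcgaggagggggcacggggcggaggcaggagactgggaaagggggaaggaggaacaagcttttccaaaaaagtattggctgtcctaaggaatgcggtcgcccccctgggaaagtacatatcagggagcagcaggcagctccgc
The CArG box, 2 C bases, 6 A or T bases and 2 G bases on either strand, was found in 1 of the 7 windows, that of Myl9, and in 1.47% of all 32817 RefSeq windows of this length. The Myl9 box, CCTAATAAGG, lay 161 to 152 bases before the start. With up to 1 G or C allowed in the core, the sequence was found in 2 of the 7 windows and in 8.6% of all windows. The Acta2 matches were CCCTATATGG at 84 to 75 bases and CCTTGTTTGG at 34 to 25 bases before the start, and the further Myl9 match was CCTTGTAAGG at 99 to 90 bases. The MCAT element CATTCC, on either strand, was found in Acta2 (GGAATG at 146 to 141 bases) and in Tpm1 (GGAATG at 56 to 51 bases), and in 12.6% of all windows. The TATA sequence TATAAA on the gene strand was in 0 of the 7 windows and in 7.6% of all windows. These matches are letters in a window and were not set against binding data.

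Levels are log2 RMA values, which are comparable between arrays for 1 probe set and not between probe sets. Differences are log2 differences of population means, the first named minus the second, with limma's standard error (SE), n = 3 animals per population, and a gene was called at a Benjamini-Hochberg adjusted p under 0.05 over all 17097 genes. Over the 4 populations, 6 of the 9 measured genes passed limma's moderated F-test, against 35.7% of all genes. They were Acta2, Myl9, Myh11, Tpm1, Tpm2 and Des, while Actg2, Cnn1 and Rgs5 did not pass.

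**Figure D1:**
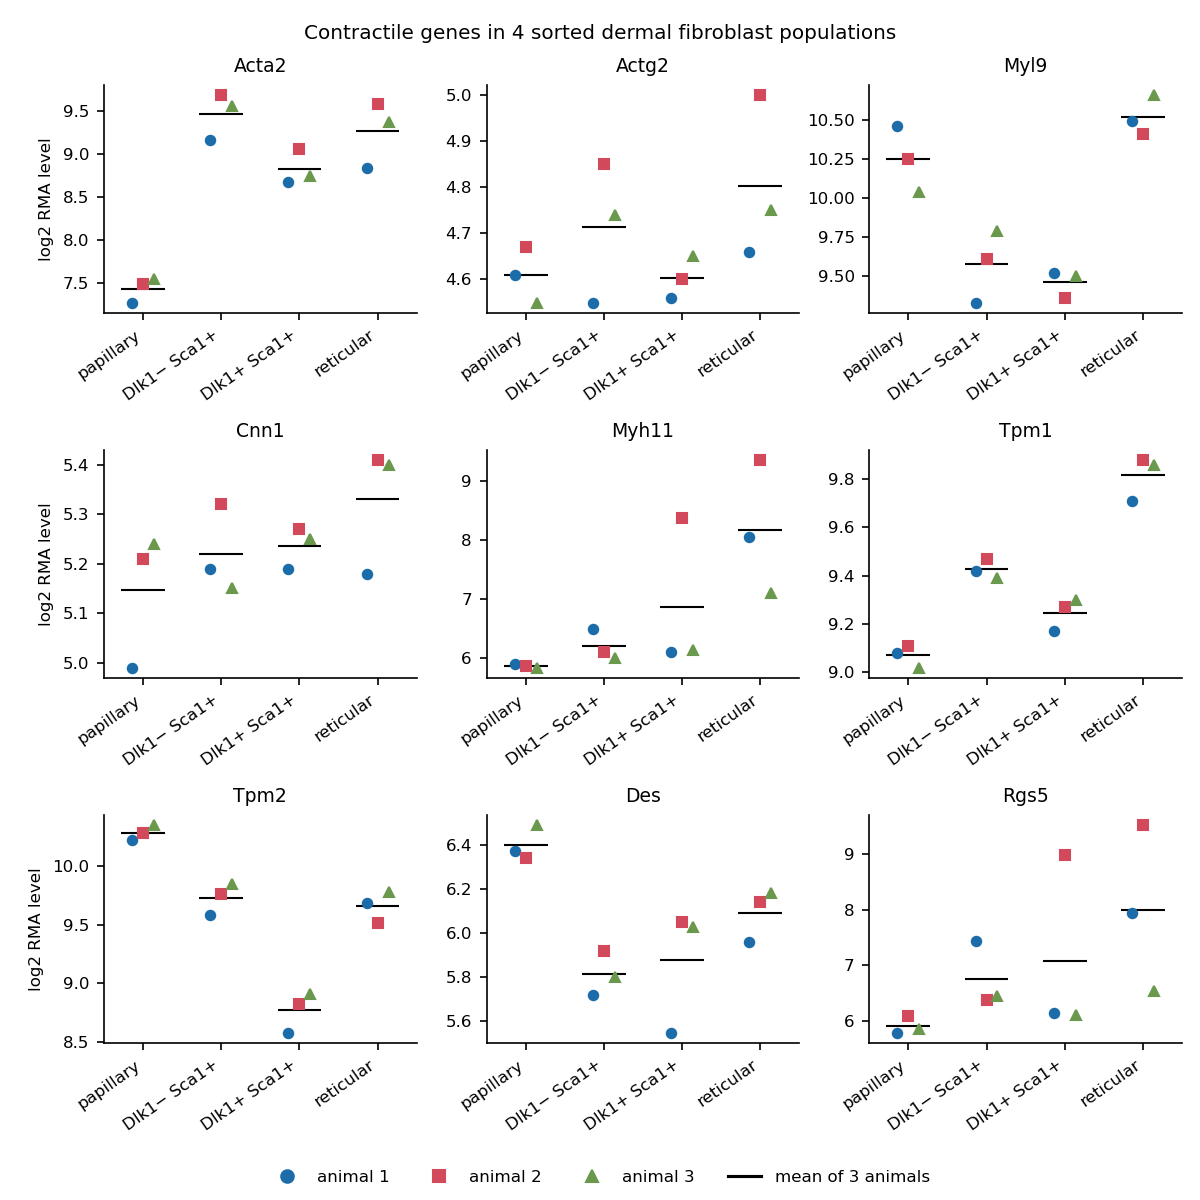
Log2 RMA level of each of the 9 measured contractile genes on each of the 12 arrays, with 1 panel per gene, points for arrays by animal, and the populations from left to right as papillary, Dlk1- Sca1+, Dlk1+ Sca1+ and reticular. Papillary arrays are the lowest for Acta2 and the highest for Tpm2, whereas Myh11 and Rgs5 are spread widely between animals within the Dlk1+ Sca1+ and reticular populations.

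Acta2, the smooth muscle alpha actin and the usual mark of myofibroblasts, was lower in papillary cells than in each of the 3 other populations. Its level was 7.27, 7.49 and 7.54 in the papillary arrays of animals 1, 2 and 3, and 9.16, 9.69 and 9.56 in the Dlk1- Sca1+ arrays. It was 8.67, 9.06 and 8.75 in the Dlk1+ Sca1+ arrays and 8.84, 9.58 and 9.37 in the reticular arrays. All papillary values lay more than 1 log2 unit below every value of the other populations, with no overlap. The papillary minus Dlk1- Sca1+ difference was -2.04 ± 0.18, a 4.10-fold difference (limma, adjusted p = 2.12e-06). The papillary minus Dlk1+ Sca1+ difference was -1.39 ± 0.18, or 2.63-fold (limma, adjusted p = 6.54e-05), and the papillary minus reticular difference was -1.83 ± 0.18, or 3.56-fold (limma, adjusted p = 6.79e-06). Each of the 3 was called in all 22 alternative settings counted, while the mean of both Acta2 probe sets gave smaller differences of -1.17, -0.92 and -1.16.

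The 3 other populations were closer to each other for Acta2. All Dlk1- Sca1+ values lay above all Dlk1+ Sca1+ values, and the difference of 0.64 ± 0.18 just missed the threshold (limma, adjusted p = 0.0543) but passed with the animal as a block (adjusted p = 0.00203). The adjusted p ran from 0.00203 to 0.438 over the alternatives and passed in 9 of 22, among them without animal 1 (0.0158), Dlk1- Sca1+ replicate 1 (0.0254), Dlk1+ Sca1+ replicate 2 (0.0449), reticular replicate 1 (0.0186) and reticular replicate 2 (0.0399). The Dlk1+ Sca1+ minus reticular difference was -0.44 ± 0.18 (limma, adjusted p = 0.21), with 0.0154 once animals were blocked, 0.0338 without animal 1 and 0.0351 without reticular replicate 1. The Dlk1- Sca1+ minus reticular difference was 0.21 (95% interval -0.19 to 0.61, limma adjusted p = 0.561). A second and dimmer Acta2 probe set, fitted with all 45037 probe sets, was also lowest in papillary cells, at 6.53 ± 0.23 against 6.83 ± 0.12, 6.98 ± 0.04 and 7.01 ± 0.18 in Dlk1- Sca1+, Dlk1+ Sca1+ and reticular cells (SD, n = 3). It was called against Dlk1+ Sca1+ (-0.45, limma adjusted p = 0.0123) and reticular cells (-0.49, limma adjusted p = 0.0087), and not against Dlk1- Sca1+ cells (-0.30, limma adjusted p = 0.0922).

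Actg2, the gamma actin of visceral smooth muscle, lay near the low end of the scale on every array. Its level was 4.61, 4.67 and 4.55 in papillary, 4.55, 4.85 and 4.74 in Dlk1- Sca1+, 4.56, 4.60 and 4.65 in Dlk1+ Sca1+, and 4.66, 5.0 and 4.75 in reticular arrays. The populations overlapped apart from Dlk1+ Sca1+, which lay entirely below reticular cells, and no comparison was called (F-test adjusted p = 0.346). Cnn1, the calponin of differentiated smooth muscle, was as even. Its level was 4.99, 5.21 and 5.24 in papillary, 5.19, 5.32 and 5.15 in Dlk1- Sca1+, 5.19, 5.27 and 5.25 in Dlk1+ Sca1+, and 5.18, 5.41 and 5.40 in reticular arrays, with overlap in every pair (F-test adjusted p = 0.482). The files give no detection call, so a dim probe set does not show whether the transcript was present. The 5th percentile of gene means was 4.26.

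Myl9, the regulatory light chain of smooth muscle and nonmuscle myosin, was higher in papillary and in reticular cells than in both Sca1+ populations. Its level was 10.46, 10.25 and 10.04 in papillary, 9.33, 9.61 and 9.79 in Dlk1- Sca1+, 9.52, 9.36 and 9.50 in Dlk1+ Sca1+, and 10.49, 10.41 and 10.66 in reticular arrays. All papillary and reticular values lay above all values of the Sca1+ populations, and papillary and reticular values overlapped. Papillary cells were above Dlk1- Sca1+ cells by 0.67 ± 0.13, or 1.59-fold (limma, adjusted p = 0.00139), and above Dlk1+ Sca1+ cells by 0.79 ± 0.13, or 1.73-fold (limma, adjusted p = 0.000374). The Dlk1- Sca1+ minus reticular difference was -0.94 ± 0.13, or 1.92-fold (limma, adjusted p = 0.000192). The Dlk1+ Sca1+ minus reticular difference was -1.06 ± 0.13, or 2.08-fold (limma, adjusted p = 0.000189). Papillary minus reticular was -0.27 (95% interval -0.55 to 0.01, limma adjusted p = 0.155) and Dlk1- Sca1+ minus Dlk1+ Sca1+ was 0.12 (95% interval -0.16 to 0.39, limma adjusted p = 0.757). Acta2 and Myl9 had different orders of the populations.

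Tpm1, an alpha tropomyosin that lies along the actin filament in muscle and nonmuscle cells, was highest in reticular cells. Its level was 9.08, 9.11 and 9.02 in papillary, 9.42, 9.47 and 9.39 in Dlk1- Sca1+, 9.17, 9.27 and 9.30 in Dlk1+ Sca1+, and 9.71, 9.88 and 9.86 in reticular arrays. The 4 populations did not overlap in any pair, in the order papillary, Dlk1+ Sca1+, Dlk1- Sca1+ and reticular from low to high. The papillary minus reticular difference was -0.75 ± 0.07, or 1.68-fold (limma, adjusted p = 4.80e-06), and papillary minus Dlk1- Sca1+ was -0.36 ± 0.07 (limma, adjusted p = 0.0022). Dlk1+ Sca1+ minus reticular was -0.57 ± 0.07 (limma, adjusted p = 0.000269), and Dlk1- Sca1+ minus reticular was -0.39 ± 0.07 (limma, adjusted p = 0.00198, or 0.0757 without animal 3). The neighbours papillary and Dlk1+ Sca1+ (-0.18, limma adjusted p = 0.0933, and 0.0489 once animals were blocked) and Dlk1- Sca1+ and Dlk1+ Sca1+ (0.18, limma adjusted p = 0.186) were not called apart on this probe set. On 1456623_PM_at both were, at -0.31 (limma, adjusted p = 0.0456) and 0.50 (limma, adjusted p = 0.014), and with the mean of all 3 probe sets they were -0.24 (limma, adjusted p = 0.00614) and 0.28 (limma, adjusted p = 0.00875). All 3 Tpm1 probe sets put the population means in the same order, and their papillary minus reticular differences were -0.75, -0.99 (limma, adjusted p = 1.88e-05) and -1.57 (limma, adjusted p = 2.86e-07).

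Tpm2, the beta tropomyosin, was highest in papillary cells on the probe set used here. Its level was 10.22, 10.28 and 10.35 in papillary, 9.58, 9.76 and 9.85 in Dlk1- Sca1+, 8.58, 8.82 and 8.91 in Dlk1+ Sca1+, and 9.68, 9.51 and 9.78 in reticular arrays. Papillary values lay above and Dlk1+ Sca1+ values below all others, while Dlk1- Sca1+ and reticular values overlapped. The papillary minus Dlk1+ Sca1+ difference was 1.51 ± 0.10, or 2.85-fold (limma, adjusted p = 1.57e-07). Papillary cells were above Dlk1- Sca1+ cells by 0.55 ± 0.10, or 1.47-fold (limma, adjusted p = 0.00134), and above reticular cells by 0.63 ± 0.10, or 1.54-fold (limma, adjusted p = 0.000503). Dlk1- Sca1+ minus Dlk1+ Sca1+ was 0.96 ± 0.10, or 1.95-fold (limma, adjusted p = 0.0001), and Dlk1+ Sca1+ minus reticular was -0.89 ± 0.10, or 1.85-fold (limma, adjusted p = 0.000155). Dlk1- Sca1+ minus reticular was 0.07 (95% interval -0.15 to 0.30, limma adjusted p = 0.754).

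The 4 Tpm2 probe sets gave different answers for papillary against reticular cells. The probe set used above and 1425028_PM_a_at (0.51 ± 0.08, limma adjusted p = 0.000566) were higher in papillary cells. The other 2 were not called, 1419739_PM_at at -0.18 (95% interval -0.39 to 0.02, limma adjusted p = 0.197) and 1449577_PM_x_at at -0.09 (95% interval -0.31 to 0.13, limma adjusted p = 0.645). On 1449577_PM_x_at the level was 9.06, 9.0 and 9.05 in papillary, 8.01, 8.22 and 8.41 in Dlk1- Sca1+, 8.13, 7.88 and 7.95 in Dlk1+ Sca1+, and 9.21, 9.04 and 9.12 in reticular arrays. Papillary and reticular values overlapped there, and both lay above all values of the Sca1+ populations. For Dlk1- Sca1+ minus reticular the first pair of probe sets was not called (0.07 and 0.03), and the second pair was (-0.42, limma adjusted p = 0.00861, and -0.91, limma adjusted p = 5.62e-05). All 4 put Dlk1+ Sca1+ cells lowest. The files do not say which transcript forms of Tpm2 each probe set reads. With the mean of all 4 probe sets, papillary minus reticular was 0.22 (limma, adjusted p = 0.0321) and Dlk1- Sca1+ minus reticular was -0.31 (limma, adjusted p = 0.00749).

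**Figure D2:**
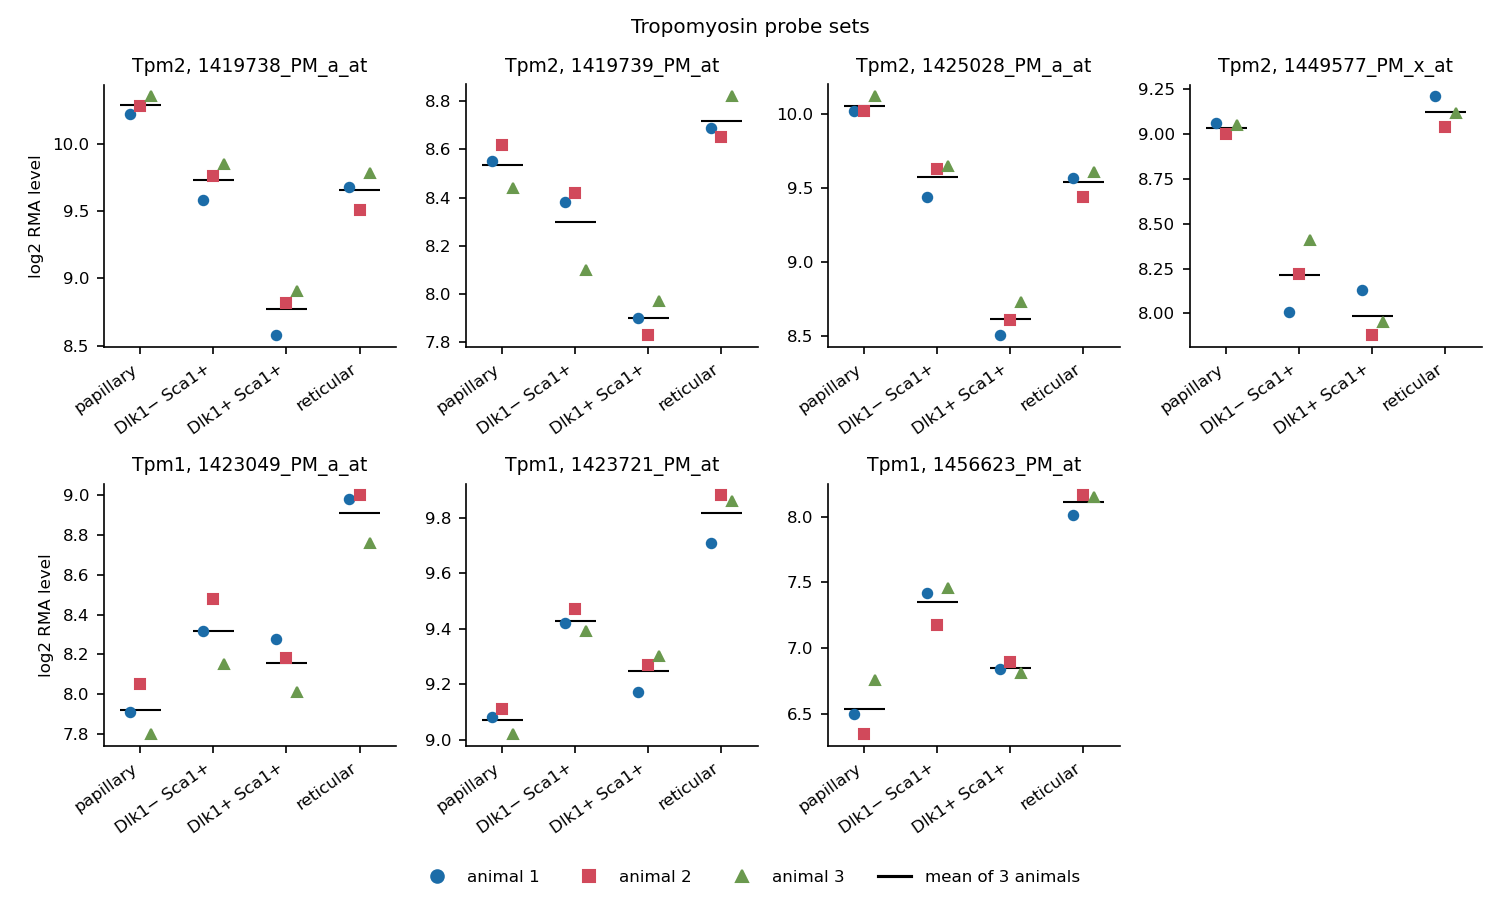
Log2 RMA level of each Tpm1 and Tpm2 probe set on each of the 12 arrays, with 1 panel per probe set, a line at each mean and the populations from left to right as papillary, Dlk1- Sca1+, Dlk1+ Sca1+ and reticular. The 3 Tpm1 probe sets share 1 order of the populations, and the 4 Tpm2 probe sets share the lowest population, Dlk1+ Sca1+, but differ in papillary against reticular cells.

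Des, which encodes the muscle intermediate filament protein desmin, was higher in papillary cells than in the Sca1+ populations. Its level was 6.37, 6.34 and 6.49 in papillary, 5.72, 5.92 and 5.80 in Dlk1- Sca1+, 5.55, 6.05 and 6.03 in Dlk1+ Sca1+, and 5.96, 6.14 and 6.18 in reticular arrays. All papillary values lay above all others. Papillary cells were above Dlk1- Sca1+ cells by 0.59 ± 0.12, or 1.5-fold (limma, adjusted p = 0.00286), and above Dlk1+ Sca1+ cells by 0.52 ± 0.12, or 1.44-fold (limma, adjusted p = 0.0057). Without animal 3 the adjusted p was 0.0622 and 0.0508. Papillary minus reticular was 0.31 ± 0.12 (limma, adjusted p = 0.0882, and 0.0262 once animals were blocked and 0.0161 without Dlk1+ Sca1+ replicate 1), whereas a second and dimmer Des probe set gave -0.0033 (limma, adjusted p = 0.987). That dimmer probe set lay near the low end of the scale, at 4.33 to 4.9 over all arrays. It was lower in Dlk1- Sca1+ (-0.29, limma adjusted p = 0.0318) and Dlk1+ Sca1+ cells (-0.40, limma adjusted p = 0.01) than in reticular cells. On the first, Dlk1- Sca1+ minus reticular was -0.28 (limma, adjusted p = 0.155, or 0.0377 without Dlk1+ Sca1+ replicate 1).

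Myh11, the heavy chain of smooth muscle myosin, was higher in reticular cells than in papillary and Dlk1- Sca1+ cells, with wide spread between animals. Its level was 5.89, 5.85 and 5.83 in papillary, 6.49, 6.10 and 6.0 in Dlk1- Sca1+, 6.09, 8.37 and 6.13 in Dlk1+ Sca1+, and 8.05, 9.35 and 7.09 in reticular arrays. Papillary values lay below all others, and the Dlk1+ Sca1+ array of animal 2 lay within the range of the reticular arrays. Papillary minus reticular was -2.31 ± 0.57, or 4.95-fold (limma, adjusted p = 0.00836), and Dlk1- Sca1+ minus reticular was -1.97 ± 0.57, or 3.91-fold (limma, adjusted p = 0.0309). Dlk1+ Sca1+ minus reticular was -1.30 ± 0.57 (95% interval -2.55 to -0.05, limma adjusted p = 0.24).

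For Myh11, the papillary minus reticular call was lost only without animal 1, and the Dlk1- Sca1+ minus reticular call was lost in more settings. Papillary minus reticular was called in 21 of 22 alternatives and was -2.38 without animal 1 (limma, adjusted p = 0.0591), and with the mean of both probe sets it was -1.13 (limma, adjusted p = 0.0165). Dlk1- Sca1+ minus reticular was called in 14 of 22, with an adjusted p of 0.113 without animal 1 and 0.0623 without animal 3. It was 0.0761 and 0.0896 without Dlk1- Sca1+ replicates 2 and 3, and 0.0635 and 0.136 without reticular replicates 1 and 2. With all arrays kept, that call was also lost with the mean of both probe sets (-0.96, limma adjusted p = 0.0532). The same held with limma's trended and robust moderation (adjusted p = 0.0979). Dlk1+ Sca1+ minus reticular was -2.05 without Dlk1+ Sca1+ replicate 2 (limma, adjusted p = 0.0168) and -1.46 without animal 2 (limma, adjusted p = 0.0274). The second Myh11 probe set, 1418122_PM_at, was dim and even, at 5.35 ± 0.05 in papillary, 5.34 ± 0.17 in Dlk1- Sca1+, 5.31 ± 0.19 in Dlk1+ Sca1+ and 5.30 ± 0.14 in reticular arrays (SD, n = 3), and was not called in any comparison.

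Rgs5, a regulator of G protein signalling and one of the best known pericyte transcripts, had the widest spread between animals among the 9 genes. Its level was 5.79, 6.09 and 5.85 in papillary, 7.43, 6.38 and 6.44 in Dlk1- Sca1+, 6.14, 8.98 and 6.10 in Dlk1+ Sca1+, and 7.93, 9.52 and 6.54 in reticular arrays. All papillary values lay below all others, the other 3 populations overlapped, and the highest arrays were reticular animal 2 and Dlk1+ Sca1+ animal 2. No comparison was called. Papillary minus reticular was -2.09 ± 0.76 (limma, adjusted p = 0.0587, and 0.0254 once animals were blocked) and was called in 5 of 22 alternatives, among them without Dlk1+ Sca1+ replicate 2 (0.0135) and without reticular replicate 3 (-2.82, adjusted p = 0.0154). The Rgs5 probe set 1417466_PM_at showed the same arrays high, at 4.96, 4.93 and 4.95 in papillary, 7.55, 5.62 and 5.69 in Dlk1- Sca1+, 5.41, 8.97 and 5.07 in Dlk1+ Sca1+, and 8.45, 9.73 and 5.88 in reticular arrays. Its papillary minus reticular difference was -3.07 ± 1.03 (limma, adjusted p = 0.0445). The remaining Rgs5 probe sets were not called there, 1420941_PM_at at -1.79 (limma, adjusted p = 0.0554) and 1420942_PM_s_at at -0.65 (limma, adjusted p = 0.173).

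Myh11 and Rgs5 shared their high arrays. Their pooled SD within populations was above that of 99.8% and 99.9% of all genes. Across the 12 arrays their levels correlated with r = 0.95, and their deviations from the population means correlated with r = 0.99. The arrays share animals and amplification, and the correlation is a description only. The differences were also computed without the highest arrays, which were picked by these values after they were seen, so that no test is given. Without reticular animal 2 and Dlk1+ Sca1+ animal 2, the Myh11 difference was -1.71 for papillary minus reticular, -1.37 for Dlk1- Sca1+ minus reticular and -1.46 for Dlk1+ Sca1+ minus reticular, and Rgs5 was -1.33 for papillary minus reticular. With reticular animal 1 left out as well, 1 reticular array remained, and Myh11 gave -1.23, -0.89 and -0.98 in the same 3 comparisons and Rgs5 -0.63 for papillary minus reticular.

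**Figure D3:**
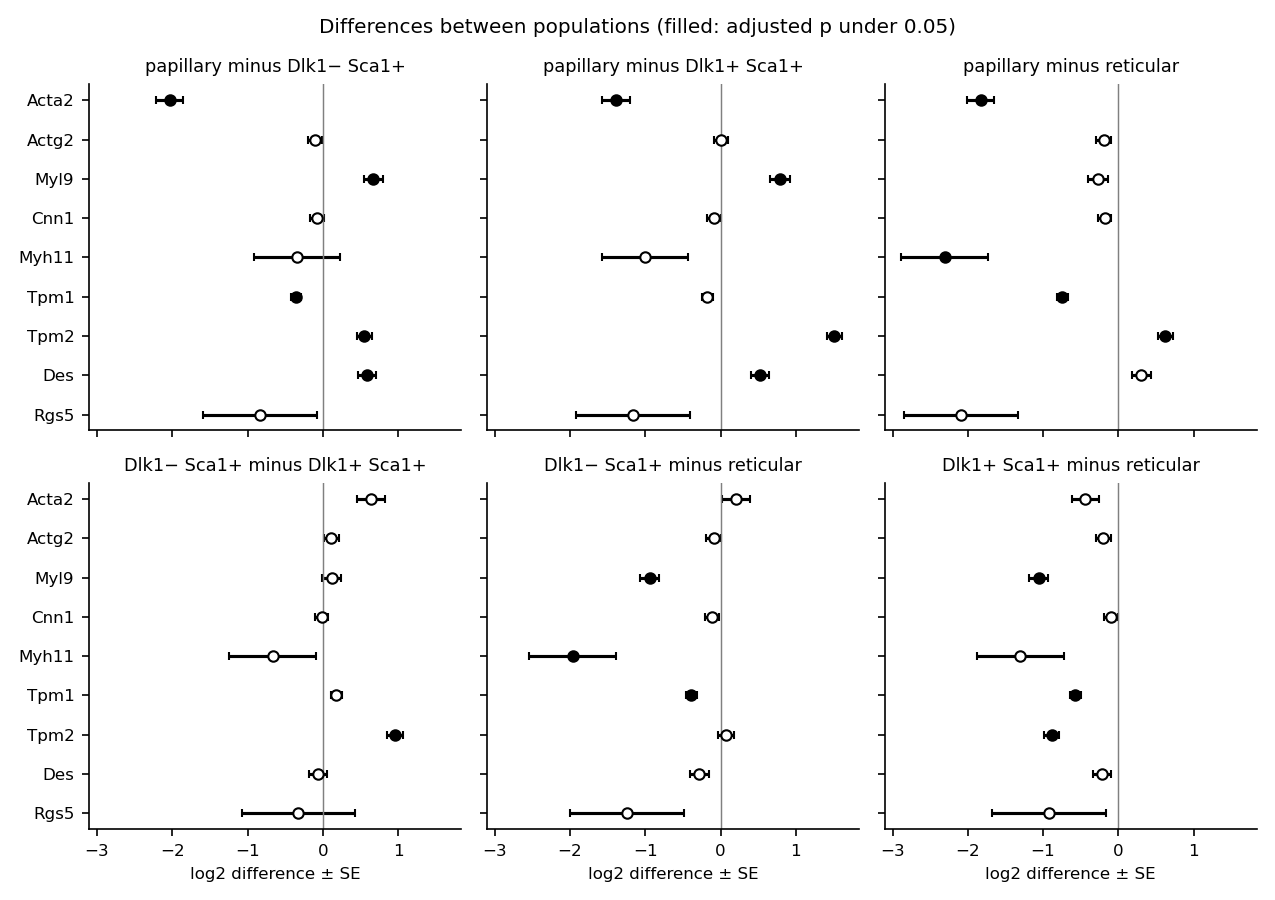
Log2 difference with limma's SE (bars) for each of the 9 measured contractile genes in the 6 comparisons, the first named population minus the second, with filled points at an adjusted p under 0.05. Acta2 is far to the left in the 3 comparisons of papillary cells, Tpm2 to the right, and the error bars of Myh11 and Rgs5 are the widest.

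Counted by comparison, the contractile genes did not move as 1 block. In papillary against Dlk1- Sca1+ cells, 5 of 9 were called, against 26.4% of all genes, with Myl9, Tpm2 and Des higher (13.1% of all genes were) and Acta2 and Tpm1 lower (13.3% were). In papillary against Dlk1+ Sca1+ cells, 4 of 9 were called, against 28.0% of all genes. Myl9, Tpm2 and Des were higher (14.1% of all genes were) and Acta2 was lower (13.9% were). In papillary against reticular cells, 4 of 9 were called, against 27.5% of all genes. Tpm2 was higher (13.9% of all genes were) and Acta2, Myh11 and Tpm1 were lower (13.6% were). So each comparison with papillary cells held called genes in both directions. Once animals were blocked, the counts were 5, 5 and 6 of 9. The median difference of the 9 genes was -0.10, -0.09 and -0.27 in these comparisons, where that of all genes was -0.0033, 0 and -0.0067.

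Among the other populations, the calls against reticular cells ran in 1 direction. In Dlk1- Sca1+ against Dlk1+ Sca1+ cells, 1 of 9 was called, Tpm2, which was higher, against 7.36% of all genes, 3.23% higher and 4.13% lower. In Dlk1- Sca1+ against reticular cells, 3 of 9 were called, against 18.2% of all genes. Myl9, Myh11 and Tpm1 were all lower, a direction taken by 8.80% of all genes, while 9.36% were higher. Without animal 3 only Myl9 was called there. In Dlk1+ Sca1+ against reticular cells, 3 of 9 were called, against 8.43% of all genes, and Myl9, Tpm1 and Tpm2 were all lower, a direction taken by 4.37% of all genes, while 4.06% were higher. Once animals were blocked, 2, 3 and 4 of 9 were called in these comparisons. The median difference of the 9 genes was 0.11, -0.28 and -0.57, where that of all genes was 0.0067, -0.0067 and -0.0067.

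Other genes of the smooth muscle contractile apparatus, 22 measured of 24 listed, were also called in both directions in papillary cells. The shares of all genes called, given above, are the background for this and the following lists. In the order Dlk1- Sca1+, Dlk1+ Sca1+ and reticular, papillary cells had 4, 7 and 3 higher and 5, 3 and 7 lower, and median differences of 0.05, 0.01 and -0.08. Ppp1r14a, an inhibitor of myosin phosphatase, was higher in papillary cells against Dlk1- Sca1+ (1.85 ± 0.13, limma adjusted p = 1.88e-07), Dlk1+ Sca1+ (1.94) and reticular cells (1.31). Mylk, the kinase of the myosin light chain, was lower in papillary cells in all 3 comparisons (-0.51, -0.41 and -1.22 ± 0.10, the last with a limma adjusted p of 8.52e-07). Pdlim7, which binds actin filaments through a PDZ domain, was lower by similar amounts (-1.53, -1.52 and -1.63). Pdlim3, of the same family, was lower in papillary cells against Dlk1- Sca1+ (-1.03, limma adjusted p = 0.0235) and reticular cells (-1.59 ± 0.31, limma adjusted p = 0.0015). Itga8, an integrin chain of contractile cells, was higher in papillary cells against Dlk1- Sca1+ (1.62) and Dlk1+ Sca1+ cells (1.47) and lower than in reticular cells (-1.32).

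Against reticular cells, the same list had 3 higher and 4 lower in Dlk1- Sca1+ cells and 0 higher and 6 lower in Dlk1+ Sca1+ cells, with medians of -0.11 and -0.14. Itga8 was lower in Dlk1- Sca1+ (-2.94 ± 0.16, limma adjusted p = 8.17e-08) and Dlk1+ Sca1+ cells (-2.79), as were Mylk (-0.71 and -0.81) and Ppp1r14a (-0.54 and -0.63). Cav1, the main caveolar protein, was higher in Dlk1- Sca1+ than in reticular (0.92) and Dlk1+ Sca1+ cells (0.81), and higher in papillary than in reticular cells (1.54). Between the Sca1+ populations 4 of the list were higher and 1 lower in Dlk1- Sca1+ cells.

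Regulators of SRF and myocardin activity, 19 measured of 20 listed, were more often called lower than higher in papillary cells. Papillary cells had 3, 3 and 3 higher and 7, 7 and 8 lower against Dlk1- Sca1+, Dlk1+ Sca1+ and reticular cells, with medians of -0.05, 0.02 and -0.15. Srf itself was lower in papillary cells against Dlk1- Sca1+ (-0.31 ± 0.09, limma adjusted p = 0.0143) and reticular cells (-0.37, limma adjusted p = 0.00468). Myocd, the myocardin coactivator, was higher in papillary cells against Dlk1- Sca1+ (0.69, limma adjusted p = 0.0141) and Dlk1+ Sca1+ cells (0.76), and lower in these Sca1+ populations than in reticular cells (-0.91, limma adjusted p = 0.00406, and -0.98, limma adjusted p = 0.00528). The LIM domain genes Fhl2 (-1.85 against reticular cells) and Fhl1 (-1.70 against Dlk1- Sca1+ cells) and the transcription factor genes Gata6 (-1.78 against Dlk1+ Sca1+ cells), Klf4 (-1.15 against Dlk1- Sca1+ cells) and Foxs1 (-0.98 against reticular cells) were lower in papillary cells. Tead1 ran the other way, at 9.54 to 9.70 in papillary arrays and 8.54 to 9.17 elsewhere. Between the Sca1+ populations 0 were higher and 1 lower in Dlk1- Sca1+ cells, and against reticular cells 2 were higher and 6 lower in Dlk1- Sca1+ and 0 higher and 5 lower in Dlk1+ Sca1+ cells.

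The actins, tropomyosins, calponins and myosins of nonmuscle cells, 14 measured of 18 listed, were read as well. Papillary cells had 5, 4 and 3 higher and 1, 1 and 0 lower against Dlk1- Sca1+, Dlk1+ Sca1+ and reticular cells, with medians of 0.04, 0.13 and 0.08. That is 6, 5 and 3 of 14 called, where 26.4%, 28.0% and 27.5% of all genes were. Myh10, a nonmuscle myosin heavy chain, was higher in papillary cells in all 3 comparisons (0.98 ± 0.10, 0.73 and 0.59, the first with a limma adjusted p of 6.57e-06). Cnn2, a calponin of nonmuscle cells, was higher in papillary cells against Dlk1+ Sca1+ cells (0.79) and lower in Dlk1+ Sca1+ than in reticular cells (-0.61). The rest of the comparisons gave 3 higher and 1 lower in Dlk1- Sca1+ against Dlk1+ Sca1+, 3 higher and 3 lower in Dlk1- Sca1+ against reticular, and 0 higher and 1 lower in Dlk1+ Sca1+ against reticular cells.

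Other RGS genes, 14 of 14 measured, had 6, 5 and 5 higher and 0, 1 and 2 lower in papillary cells against Dlk1- Sca1+, Dlk1+ Sca1+ and reticular cells. Rgs7, a family member best known from neurons, was higher by 2.20 ± 0.10 (limma, adjusted p = 3.49e-09), 2.11 and 2.00 in the same 3 comparisons, and Rgs10 by 1.97, 1.74 and 1.21. Rgs16 was higher in papillary cells against Dlk1- Sca1+ cells by 2.16 and lower in Dlk1- Sca1+ than in reticular cells (-1.91 ± 0.13, limma adjusted p = 5.52e-07). In the other comparisons the list gave 0 higher and 2 lower, 1 higher and 4 lower, and 1 higher and 3 lower, for Dlk1- Sca1+ against Dlk1+ Sca1+, Dlk1- Sca1+ against reticular and Dlk1+ Sca1+ against reticular cells.

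The genes most like each contractile gene over the 12 arrays, by Pearson r among the other measured genes, were named as a description, since arrays share population and animal. For Acta2 they were Adamts4 (0.97), Rin3 (0.97) and Vegfa (0.96). For Myl9 they were Lamc3 (0.96), Ndnf (0.95) and Agap1 (0.95), for Tpm1 Slc2a3 (0.96), Ubash3b (0.96) and Sox11 (0.96), and for Tpm2 Wif1 (0.99), Robo1 (0.96) and Crybg3 (0.95). No gene was named for more than 1 of these 4. For Des they were Mutyh (0.95), Coro2a (0.94) and Cyp46a1 (0.94), and for the dim genes Actg2 and Cnn1 they were Sult1c1 (0.91), Paxx (0.90) and an immunoglobulin kappa variable gene (0.90), and Asphd1 (0.95), Ghrl (0.93) and Lrrn2 (0.93). For Rgs5 they were Ptprb (0.93), Hspa8 (0.88) and Kbtbd8 (0.87). Ptprb, an endothelial phosphatase, stood at 7.52 on the animal 2 array of Dlk1+ Sca1+ cells, with 6.93 in Dlk1- Sca1+ animal 1 and 6.99 and 7.19 in reticular animals 1 and 2, against 5.94 to 6.30 in papillary arrays. For Myh11 they were Stum (0.91), Cyb561d1 (0.91) and Clec1a (0.90).

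Markers of cells that carry the contractile set differed between the populations as well. Fibroblast transcripts, read as a check of the labels, were high for the collagen gene Col1a1 at 13.06 to 13.16 and the matrix gene Dcn at 12.67 to 12.85, with Pdgfra at 6.59 to 8.03, over all 12 arrays. Dpp4, which encodes CD26, was at 10.18 to 10.97 in papillary arrays and at most 6.53 elsewhere. The Dlk1 transcript was at 9.82 to 10.10 in papillary arrays and 11.18 to 11.54 in the arrays sorted as Dlk1- Sca1+. It was at 12.82 to 13.04 in Dlk1+ Sca1+ and reticular arrays. Of 9 fibroblast and sorting genes, papillary cells had 3 higher in each of the 3 comparisons and 1, 2 and 1 lower against Dlk1- Sca1+, Dlk1+ Sca1+ and reticular cells. Of mural cell markers other than the contractile genes, 15 measured of 19 listed, papillary cells had 0 higher and 8, 7 and 10 lower against Dlk1- Sca1+, Dlk1+ Sca1+ and reticular cells. Dlk1- Sca1+ cells had 1 higher and 6 lower than reticular cells, Dlk1+ Sca1+ cells 1 higher and 6 lower than reticular cells, and Dlk1- Sca1+ cells 1 higher and 1 lower than Dlk1+ Sca1+ cells. Their summed linear level was 2851 to 2886 in papillary, 5066 to 5914 in Dlk1- Sca1+, 5350 to 5945 in Dlk1+ Sca1+ and 6201 to 6633 in reticular arrays. Steap4 (6.79 to 7.10 in papillary, 9.60 to 10.66 elsewhere) and Heyl (5.27 to 5.85 and 8.80 to 10.02) carried much of the papillary gap. Not every marker was lowest in papillary arrays. Ndufa4l2 was 7.88 to 7.98 there and at most 7.90 elsewhere, and Rgs4 was 6.47 to 6.56 there against 5.82 to 6.37 in Dlk1- Sca1+ arrays. Papillary arrays were lowest for the summed mural level, in which Steap4 and Heyl weigh heavily, and for Acta2, Myh11 and Rgs5. The sum was not taken without Steap4 and Heyl. The part of mural cells in these differences was not tested.

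Within populations the mural markers varied less than Rgs5 and Myh11, as would almost any list of genes. The pooled SD of Myh11 and Rgs5 was above that of 99.8% and 99.9% of all genes. Some of the markers were also dim, with Art3 at 4.03 to 4.68 over all arrays. The part of mural cells in the spread of Rgs5 and Myh11 was not tested. The largest range among 3 arrays of 1 population was 2.98 for Rgs5 and 2.28 for Myh11, and 0.25 to 1.00 for the 15 mural markers, with a median of 0.43. Notch3, a receptor that mural cells need, was 9.23, 9.10 and 8.91 in Dlk1+ Sca1+ and 9.99, 10.01 and 10.09 in reticular arrays, where Rgs5 differed by over 2 log2 units between animals. Deviations of the 15 markers from the population means correlated with those of Rgs5 at r from -0.52 to 0.55, with a median of 0.20, over 12 arrays that share animals. The widest range of the 15 was that of Rgs4 in reticular cells, at 6.86, 7.86 and 7.24, and it was 6.43, 6.92 and 6.81 in Dlk1+ Sca1+ cells. Gja4, a connexin of vessel walls, was 5.84, 6.54 and 6.27 in Dlk1+ Sca1+ and 6.25, 6.50 and 6.36 in reticular arrays. Ano1 was 6.16, 6.30 and 6.26 in Dlk1+ Sca1+ and 6.65, 6.85 and 6.77 in reticular arrays. Animal 2 was thus the highest in both populations for Rgs4, Gja4 and Ano1, as for Rgs5 and Myh11. The deviations of Rgs4, Gja4 and Ano1 correlated with those of Rgs5 at r = 0.40, 0.55 and 0.30. For Mcam and Art3 r was 0.45 and 0.44, though animal 2 alone was not highest in both populations. In reticular arrays Heyl was at 9.78 to 9.90, Kcnj8 at 7.72 to 8.35 and Pdgfrb at 9.64 to 9.93, against 5.27 to 5.85, 4.62 to 4.82 and 8.57 to 8.77 in papillary arrays. Higd1b, a gene known mainly from pericytes, was at 5.31 to 5.63 in reticular and 5.15 to 5.35 in papillary arrays and was not called (limma, adjusted p = 0.0937).

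**Figure D4:**
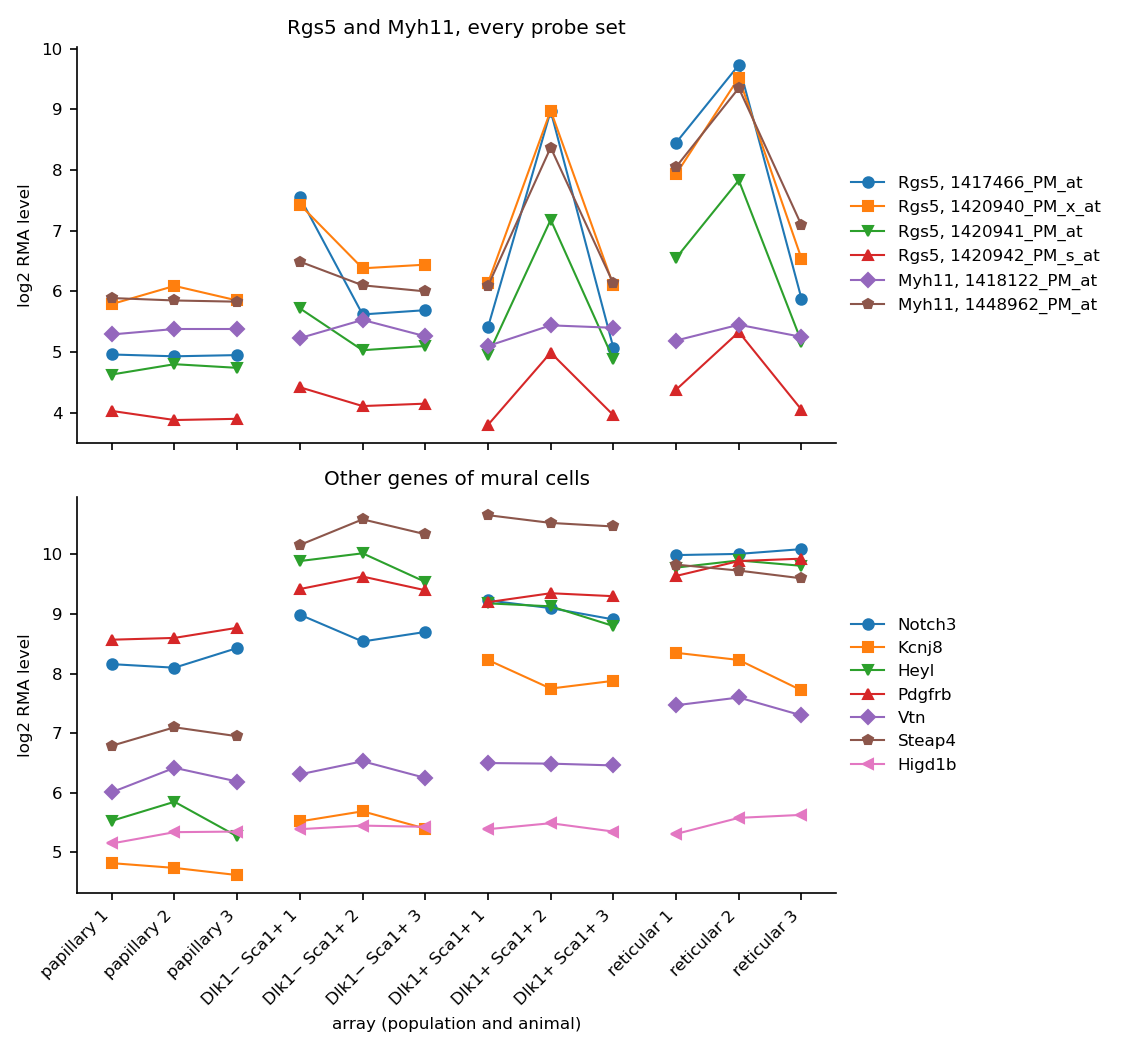
Log2 RMA levels on the 12 arrays of every probe set of Rgs5 and Myh11 (upper panel) and of the mural cell markers Notch3, Kcnj8, Heyl, Pdgfrb, Vtn, Steap4 and Higd1b (lower panel), with lines joining the 3 arrays of a population and the populations from left to right as papillary, Dlk1- Sca1+, Dlk1+ Sca1+ and reticular. Apart from the even Myh11 probe set 1418122_PM_at, the upper panel peaks on the Dlk1+ Sca1+ and reticular arrays of animal 2. None of the 7 markers drawn was highest in animal 2 in both populations. Pdgfrb and Higd1b were highest in animal 2 among Dlk1+ Sca1+ arrays, and Heyl and Vtn among reticular arrays. Rgs4, Gja4 and Ano1, which were highest in animal 2 in both populations, are not drawn.

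Endothelial markers differed in which array was highest. Cdh5, the cadherin of endothelial junctions, was highest in the Dlk1+ Sca1+ array of animal 2 at 7.76. It was 7.05 in Dlk1- Sca1+ animal 1, 6.85 in reticular animal 1 and 6.63 in reticular animal 2, the array highest in Rgs5. Pecam1, which encodes the CD31 that was sorted against, was 8.74 in Dlk1+ Sca1+ animal 2, 8.06 in Dlk1- Sca1+ animal 1 and 7.87 in reticular animal 2. Vwf, Emcn and Plvap were also highest in Dlk1+ Sca1+ animal 2. Kdr, Cldn5 and Esam were highest in reticular animal 2, Tie1 and Egfl7 in Dlk1+ Sca1+ animal 3, and Erg in papillary animal 1. Of 12 endothelial markers, papillary cells had 1, 1 and 0 higher and 2, 4 and 3 lower against Dlk1- Sca1+, Dlk1+ Sca1+ and reticular cells, which is 3, 5 and 3 of 12 called, where 26.4%, 28.0% and 27.5% of all genes were. The summed linear level was 738.3 to 829.1 in papillary, 1557 to 1836 in Dlk1- Sca1+, 1073 to 1600 in Dlk1+ Sca1+ and 1019 to 1140 in reticular arrays. Tek, a receptor of vessel endothelium, carried much of this order, at 5.07 to 5.50 in papillary, 9.68 to 9.86 in Dlk1- Sca1+, 8.05 to 8.22 in Dlk1+ Sca1+ and 6.74 to 6.99 in reticular arrays. Without Tek the sum was 704.7 to 783.8, 736.6 to 962.6, 796.6 to 1335 and 912.3 to 1023 in the same order, highest in the Dlk1+ Sca1+ array of animal 2. The part of vessel RNA in the levels of Rgs5 and Myh11 was not tested.

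Skeletal muscle markers, 28 measured of 29 listed, were more often higher in reticular cells. Papillary cells had 1 higher and 2, 7 and 12 lower against Dlk1- Sca1+, Dlk1+ Sca1+ and reticular cells, and the summed linear level was 1496 to 1566 in papillary, 1543 to 1690 in Dlk1- Sca1+, 1922 to 2042 in Dlk1+ Sca1+ and 2425 to 2819 in reticular arrays. Against reticular cells, Dlk1- Sca1+ cells had 0 higher and 12 lower and Dlk1+ Sca1+ cells 0 higher and 6 lower. Acta1, the skeletal alpha actin, was 5.18, 5.03 and 5.15 in papillary, 5.70, 5.59 and 5.56 in Dlk1- Sca1+, 7.06, 6.71 and 6.58 in Dlk1+ Sca1+, and 8.57, 8.20 and 7.71 in reticular arrays. The order of the populations for Acta1, without overlap, differed from that for Acta2, whose Dlk1- Sca1+ mean was the highest. Myod1, which defines the muscle lineage, was 6.29 to 6.68 over all 12 arrays, and was 1 of the even genes of this list. Tnnc2 was 5.95 to 6.08 in papillary and 8.31 to 9.11 in reticular arrays, and Mylpf 6.35 to 6.48 and 7.37 to 7.71. In that comparison 12 genes of the list were lower and 1 was higher in papillary cells. The part of skeletal muscle RNA in the reticular levels of Tpm1, Myl9 and Myh11 was not tested.

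Keratinocyte markers varied within populations, with summed linear levels of 1028 to 3849 in papillary, 2189 to 11490 in Dlk1- Sca1+, 1836 to 4383 in Dlk1+ Sca1+ and 1182 to 4275 in reticular arrays. Of 10 such markers 1 was called higher in Dlk1- Sca1+ than in papillary cells, and 1 higher in Dlk1- Sca1+ than in reticular cells. Dlk1- Sca1+ replicate 1 had the highest keratinocyte level, and the Acta2 difference between papillary and Dlk1- Sca1+ cells was called with and without it. Leaving it out does not remove the keratinocyte difference. Dlk1- Sca1+ animals 2 and 3, at 2189 and 2329, stood above papillary animals 2 and 3, at 1450 and 1028, and below papillary animal 1, at 3849. The part of keratinocyte RNA in the Acta2 difference was not tested. Of 12 immune and mast cell markers 0 were higher and 1 lower in papillary against Dlk1- Sca1+ and against Dlk1+ Sca1+ cells, and 1 was higher and 1 lower against reticular cells. Of 8 Schwann cell and melanocyte markers 4, 1 and 0 were lower and 0 higher in papillary cells against Dlk1- Sca1+, Dlk1+ Sca1+ and reticular cells. The Dlk1- Sca1+ array of animal 1, which had the highest Rgs5 of its population, also stood above animals 2 and 3 in these lists. Its summed linear level was 970.2 for the immune list, against 652.4 and 634, and 2066 for the Schwann cell and melanocyte list, against 918 and 797.7. Cpa3, a mast cell protease, was 7.05 there, against 4.59 and 4.71. The part of these cells in the Dlk1- Sca1+ levels was not tested.

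**Figure D5:**
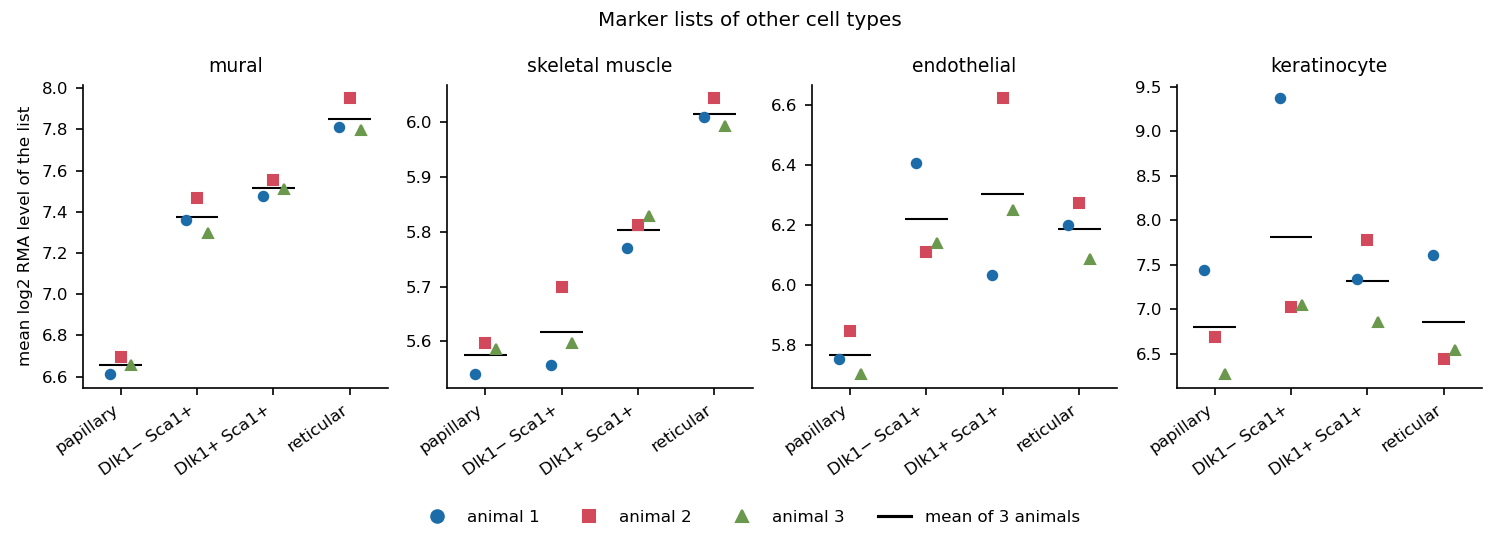
Mean log2 RMA level of the mural, skeletal muscle, endothelial and keratinocyte marker lists on each of the 12 arrays, with 1 panel per list and the populations from left to right as papillary, Dlk1- Sca1+, Dlk1+ Sca1+ and reticular. Mural and skeletal muscle means are lowest in papillary and highest in reticular cells, and the keratinocyte mean peaks at 9.37 in the Dlk1- Sca1+ array of animal 1.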

How the data were processed

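Transcripts were measured on 12 Affymetrix arrays, 3 per population. The authors deposited log2 expression values, for which the submitters' processing notes name RMA and affy, and the sources used here give no version or genome build. RMA corrects background, equalises the arrays by quantiles and summarises probes; it and the 21 cycles of amplification, per the labels' protocols, can compress differences. Array medians were 6.21 to 6.34, and no further normalization was applied. Precision is limited by having 3 arrays per population.

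Of 45141 probe sets, 104 controls were left out, 28898 had 1 symbol, 551 had several and 15588 were unnamed in the platform annotation. Symbols of 28689 matched RefSeq by Entrez number and 0 changed. The probe set with the highest mean was taken for each of 17097 genes, with no filter on dim genes. Populations and animals came from the labels. Each gene was fitted in limma 3.58.1 (R 4.3.3) with 1 coefficient per population, 8 residual and 4.47 prior degrees of freedom, with Benjamini-Hochberg adjustment within each of 6 contrasts. All probe sets of the contractile genes came from a second fit of all 45037 probe sets. The procedure was tested on simulated data.

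The labels number 3 littermates, and a shared number was read as the same animal. Deviations from population means correlated between arrays of 1 animal with a mean r of 0.27 (17 of 18 pairs above 0.1). The mean r of -0.13 between animals follows from that value by arithmetic, since deviations within a population cancel. These values cannot tell a shared animal from shared handling. Blocked values are given where they change a call.

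The text names all 10 contractile genes, genes taken from the up to 4 called per list and contrast with the largest difference, the 3 genes most correlated with each contractile gene, and marker genes read beside a result. Srf and Tead1 lie outside this rule and were chosen after their values were seen. The named genes and lists were chosen with earlier results of these data known. The alternatives were the animal as a block, array centring, repeated quantile normalization, a filter on dim genes, the mean of all probe sets, trended and robust moderation, fits of 2 populations, and leaving out each animal or array, 22 settings in all. Leaving out the 2 arrays highest in Rgs5, or the 3 highest in Myh11, was added after the values were seen and is not counted among them. Lists of immune and mast cell markers and of Schwann cell and melanocyte markers were also read.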

Additional observations from a re-analysis of the deposited data

How the results depend on the processing

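Over 1170 combinations of a contractile gene, a comparison and 1 of the 22 settings, 1107 kept both their direction and their side of the threshold, 31 became called, 12 lost their call, 19 that were not called changed sign, and 1 reversed. The reversal was Tpm2 in Dlk1- Sca1+ minus reticular cells, which was -0.31 with the mean of all probe sets against 0.07 with the brightest, and whose 4 probe sets differ as described in the results. The count of called genes in Dlk1- Sca1+ against Dlk1+ Sca1+ cells was 2 in place of 1 with the animal as a replicate block, with arrays centred on their medians, with only the brighter genes, with the mean of all probe sets, with trended and robust moderation, and, in settings picked by the values and so no test, with the 2 arrays highest in Rgs5 or the 3 highest in Myh11 left out. With the replicate block, 1897 of all genes were called there, against 1258 without it. Among single genes and comparisons, the block changed the calls given in the results and no other.

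Leaving out 1 animal or array at a time gave 4 to 5 called genes in papillary against Dlk1- Sca1+, 3 to 4 in papillary against Dlk1+ Sca1+ and 3 to 5 in papillary against reticular cells. It gave 1 to 2 in Dlk1- Sca1+ against Dlk1+ Sca1+, 1 to 4 in Dlk1- Sca1+ against reticular and 3 to 4 in Dlk1+ Sca1+ against reticular cells, and 4 to 7 by the F-test. The cause of these changes was not tested. Signal near background limits what can be said of Actg2, Cnn1 and the dimmer Des probe set.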
